A study of Mus musculus with 11 samples.

Results

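The genes described here encode chromatin remodellers and histone and DNA modifiers: 41 genes of the SWI/SNF (BAF) complex, the ISWI, CHD and INO80 remodellers, the histone deacetylases, Polycomb repressive complex 2 (PRC2), DNA methylation and demethylation, the HP1 proteins, and CTCF with cohesin. They were chosen by name and complex, but with earlier results of these data known, so the choice was not blind to the values. All 41 were present among the 18194 genes with a probe set that carries 1 gene symbol. A gene's value is that of its brightest probe set, judged by the mean of all 11 arrays. Of the 41, 28 had more than 1 such probe set and 13 had a single one.

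The arrays measured total RNA from the left ventricle of C57BL/6 mice. The transgene was the full-length cDNA of mouse Hmgn5, tagged with FLAG, behind a floxed LacZ cassette and the CAG promoter. Crossing to alphaMHC-cre mice, in which the promoter of a heart muscle myosin gene drives cre, removed LacZ in the heart. HMGN5 is a protein that binds nucleosomes and loosens chromatin packing. Controls were labelled wild-type, and the labels mention cre for the transgenic hearts alone, so effects of cre and of Hmgn5 cannot be told apart. There were 3 transgenic and 3 control arrays of adults, and 3 transgenic and 2 control arrays of newborns, and the labels give age only as adult or newborn. The labels call them biological replicates without naming animals or pools, so the p-values measure the spread between these samples.

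SWI/SNF, ISWI, CHD and INO80 complexes use ATP to slide or evict nucleosomes. Histone deacetylases remove acetyl groups and mostly favour silencing, PRC2 methylates histone H3 at repressed genes, DNMT enzymes methylate DNA and TET enzymes oxidise that methyl group. HP1 proteins bind methylated histone H3 in heterochromatin, and CTCF with cohesin holds chromatin loops. In the heart, BAF subunits, PRC2 and class IIa deacetylases are known for roles in development and in the growth of the muscle, which stops dividing soon after birth.

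Several of these genes serve DNA replication or dividing cells, and E2F transcription factors are known to drive many such genes. The promoters were therefore searched, after the expression values had been seen, for the E2F-type letters TTTGGCGC, TTTCCCGC, TTTCGCGC and TTTGCCGC on both strands. The RefSeq promoter table (build GRCm38.p6, from 250 bases before to 50 after each start site) held 35 of the 41 genes. At least 1 match stood in the promoters of 6 of these 35 genes (17.1%), against 704 of 27025 genes of the whole table (2.60%) and 550 of 14453 genes measured here (3.81%). The windows of 30 bases that hold the matches are shown on the strand of the gene, with the match in capitals, because 4 of the 6 genes belong to those that were lower in adult hearts.
Ezh2, chr6:47595009-47595038, minus strand: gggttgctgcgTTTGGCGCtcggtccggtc
Dnmt1, chr9:20952574-20952603, minus strand: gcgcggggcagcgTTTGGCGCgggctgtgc
Dnmt1, chr9:20952824-20952853, minus strand: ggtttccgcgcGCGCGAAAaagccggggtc
Arid1a, chr4:133754022-133754051, minus strand: tccctccctccTTTCCCGCcccctccccct
Suz12, chr11:79992876-79992905, plus strand: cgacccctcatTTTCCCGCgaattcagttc
Smarcd1, chr15:99702145-99702174, plus strand: gtcagcacgccTTTCCCGCtagtcgccccc
Cbx3, chr6:51470437-51470466, plus strand: tggagccccgcTTTGGCGCgctccgagacg

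The match of Ezh2 began 4 bases after the start site and the forward match of Dnmt1 began 34 bases after it. The other Dnmt1 match read on the opposite strand. Of the 18 genes of the table that were lower in control adults than in control newborns, 4 held a match (22.2%), beside 2 of the other 17 (11.8%) and 171 of 2635 measured genes that were lower in control adults (6.49%). A match is a run of letters, and binding was not measured.

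Arrays of the same group had pairwise correlations of 0.975 to 0.992 (adults) and 0.994 to 0.997 (newborns) across the 18194 genes. The 18S ribosomal RNA control probe sets set replicate 3 of both adult groups apart, at 12.18 (transgenic) and 11.89 (control) against 7.64 to 8.58 on the other 4 adult arrays. Newborn arrays read 10.05 to 10.53, so an effect of age and one of sample handling cannot be told apart. The single Hmgn5 probe set read 8.26 to 8.71 in transgenic adults, 8.44 to 8.77 in control adults, 8.56 to 8.84 in transgenic newborns and 8.81 to 8.85 in control newborns. It was not higher in either transgenic group, and the labels do not say whether the cDNA holds the part that the probe set reads, so it does not check the labels. All 8 cardiomyocyte markers were measured, with a summed level of 16.59 to 16.85 (log2) over the 11 arrays. These are bulk samples, in which fewer cells of a type and less RNA per cell cannot be told apart.

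The member values ranged from 3.59 to 10.78 on the log2 scale, where the median gene read 6.09 to 6.40. Hdac8, a class I deacetylase, lay below the 40th percentile on every array. Brightness differs between probe sets for reasons other than the amount of RNA, so levels are compared within a gene only.

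Chromatin genes were mostly lower in adult than in newborn control hearts. Of the 41 members, 21 were lower in adults, 1 was higher and 19 did not pass (limma, Benjamini-Hochberg adjusted p under 0.05 over all genes). That is 53.7% of the members, where 33.0% of all 18194 genes were called. By direction, 51.2% of members were lower against 18.1% of all genes, and 2.44% were higher against 14.9%. The median log2 difference was -0.50 over the members and 0.09 over all genes. In 29 members every control adult array read below every control newborn array, where 28.5% of all genes did so, and in 4 every adult array read above, where 35.1% of all genes did. The fall was largest for the remodeller Smarca1, the PRC2 methyltransferase Ezh2 and the DNA demethylase Tet1, and the methyltransferase Ezh1 was the member that rose.

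**Figure D1:**
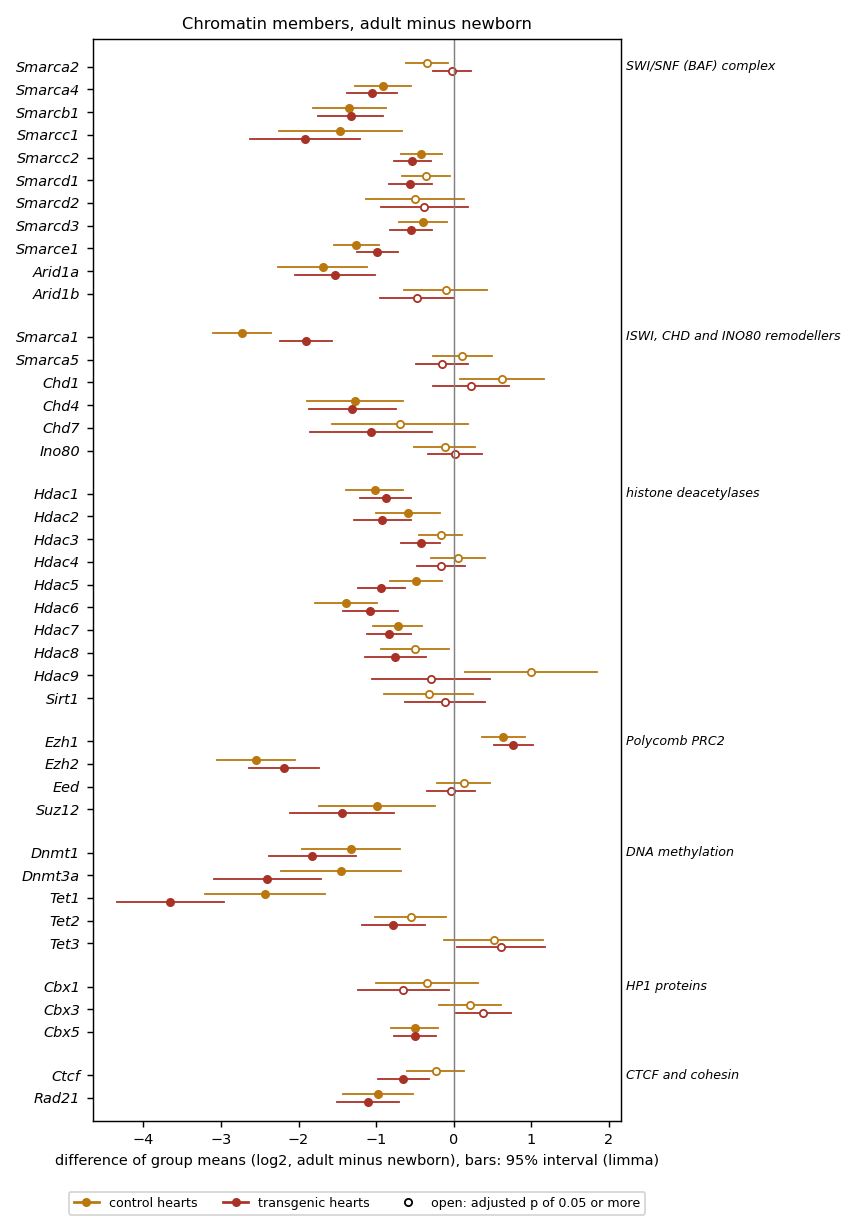
Difference between adult and newborn hearts for each of the 41 genes, grouped by complex, on the log2 scale (x axis; ochre, control hearts; red, transgenic hearts). Points are differences of group means, bars are limma's 95% intervals, and open points did not pass an adjusted p of 0.05. Most filled points lie left of 0, with Smarca1, Ezh2 and Tet1 farthest left and Ezh1 filled on the right.

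Among the 11 SWI/SNF genes, 7 were lower in control adults, 0 were higher and 4 did not pass, with a median of -0.50. Arid1a, the large DNA-binding subunit that defines the canonical BAF complex, read 8.15, 8.52 and 9.07 on the control adult arrays and 10.25 and 10.28 on the control newborn arrays. The adult arrays were all lower, with the highest value on replicate 3, and the log2 difference was -1.68 (SE 0.26, limma adjusted p = 6.68e-04). The core scaffold subunit Smarcc1 read 7.57, 7.12 and 8.13 in control adults and 9.14 and 9.00 in control newborns. The groups did not overlap and the gene fell by 1.46 (SE 0.36, adjusted p = 0.0102). Smarcb1, a core subunit known as a tumour suppressor, read 6.70, 7.31 and 7.56 against 8.48 and 8.59 and fell by 1.34 (SE 0.21). Its adult values spread more widely than its newborn values and stayed below them. The fall rests on the brightest probe set of Smarcb1. Its others gave -0.11 (SE 0.12) and 0.26 (SE 0.14) and did not pass.

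The other SWI/SNF genes that passed were the ATPase gene Smarca4 (-0.91), Smarce1 (-1.26), Smarcc2 (-0.42) and the muscle-enriched subunit gene Smarcd3 (-0.40). The alternative ATPase gene Smarca2 had a difference of -0.35 (SE 0.12) and narrowly missed the threshold. Arid1b, the alternative to Arid1a, had a difference of -0.10 (95% interval -0.64 to 0.43). Smarcd1 and Smarcd2 had differences of -0.36 (adjusted p = 0.0681) and -0.50 (adjusted p = 0.192).

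Of the 6 ISWI, CHD and INO80 genes, 2 were lower in control adults and 4 did not pass. Smarca1 encodes SNF2L, an ISWI ATPase. It read 5.34, 5.06 and 4.96 in control adults and 7.99 and 7.71 in control newborns. The ages stood more than 2 log2 units apart on every pair of arrays, and the fall of 2.73 (SE 0.17, adjusted p = 1.24e-06) corresponds to a 6.64-fold lower value. Its sister ATPase gene Smarca5 (SNF2H) had a difference of 0.11 (95% interval -0.27 to 0.49). Chd4, the ATPase of the NuRD deacetylase complex, fell by 1.27 (SE 0.28, adjusted p = 0.00594). Chd1, linked to active transcription, and Chd7, needed in neural crest, had differences of 0.63 (adjusted p = 0.0722) and -0.69 (adjusted p = 0.197), and Ino80 one of -0.12. The second brightest probe set of Chd1 gave -1.45 (SE 0.40, limma adjusted p = 0.0225 over all probe sets). Its dimmer ones gave -0.32 and 0.09 and did not pass, so the direction of Chd1 differs between probe sets. The second probe set of Chd7 gave -0.95 (SE 0.24, limma adjusted p = 0.0157 over all probe sets).

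Among the 10 deacetylase genes, 5 were lower in control adults and 5 did not pass, with a median of -0.49. Hdac6, which acts mainly on tubulin in the cytoplasm, read 7.30, 7.45 and 7.16 in control adults and 8.69 and 8.70 in control newborns. All adult arrays lay more than 1 log2 unit below the newborn arrays, and the gene fell by 1.39 (SE 0.18, adjusted p = 2.27e-04). The class I enzymes Hdac1 and Hdac2 fell by 1.02 (SE 0.17) and 0.59 (SE 0.19), while Hdac3 had a difference of -0.17 (95% interval -0.45 to 0.11). Of the class IIa enzymes, which shuttle between nucleus and cytoplasm and restrain growth of heart muscle, Hdac7 fell by 0.72 (SE 0.15) and Hdac5 by 0.49 (SE 0.15). Hdac4 had a difference of 0.05 and Hdac9 one of 1.00 (SE 0.39, adjusted p = 0.0684), with all control adult arrays of Hdac9 above the control newborn arrays. The sirtuin gene Sirt1 had a difference of -0.32 and Hdac8 one of -0.50 (adjusted p = 0.0745).

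PRC2 divided between its alternative catalytic subunits. Ezh2, the more active histone H3 methyltransferase of dividing cells, read 6.65, 6.06 and 6.45 in control adults and 8.95 and 8.92 in control newborns. Every adult value lay more than 2 log2 units below every newborn value, and Ezh2 fell by 2.55 (SE 0.23, adjusted p = 1.77e-05), which is 5.85-fold. Ezh1, the subunit kept in resting cells, read 8.84, 8.93 and 8.65 in control adults and 8.17 and 8.17 in control newborns. Its adult arrays were all higher, with a rise of 0.64 (SE 0.13, adjusted p = 0.00325). The partner subunit gene Suz12 fell by 0.98 (SE 0.34, adjusted p = 0.0452), and Eed, which reads the methyl mark, had a difference of 0.13 (95% interval -0.21 to 0.47).

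Of the 5 DNA methylation genes, 3 were lower in control adults and 2 did not pass, with a median of -1.32. Tet1 read 5.48, 5.43 and 6.19 in control adults and 7.89 and 8.38 in control newborns. The groups did not overlap, and Tet1 fell by 2.43 (SE 0.35, adjusted p = 4.43e-04). The de novo methyltransferase gene Dnmt3a read 7.50, 7.91 and 9.03 in control adults and 9.57 and 9.64 in control newborns. Control adult replicate 3 came closest to the newborn arrays, and the fall was 1.46 (SE 0.35, adjusted p = 0.00925). Dnmt1, which copies methylation after replication, fell by 1.32 (SE 0.29). The other TET genes had differences of -0.56 (Tet2, adjusted p = 0.0589) and 0.52 (Tet3, adjusted p = 0.187).

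Among the 3 HP1 genes, Cbx5 (HP1 alpha) fell by 0.50 (SE 0.14, adjusted p = 0.0173), and Cbx1 and Cbx3 had differences of -0.34 and 0.21. The direction of Cbx5 rests on its brightest probe set, since its other 4 probe sets read 0.14 to 0.39 higher in control adults and did not pass. The cohesin ring gene Rad21 fell by 0.98 (SE 0.21, adjusted p = 0.00436), and Ctcf had a difference of -0.23 (95% interval -0.60 to 0.14).

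**Figure D2:**
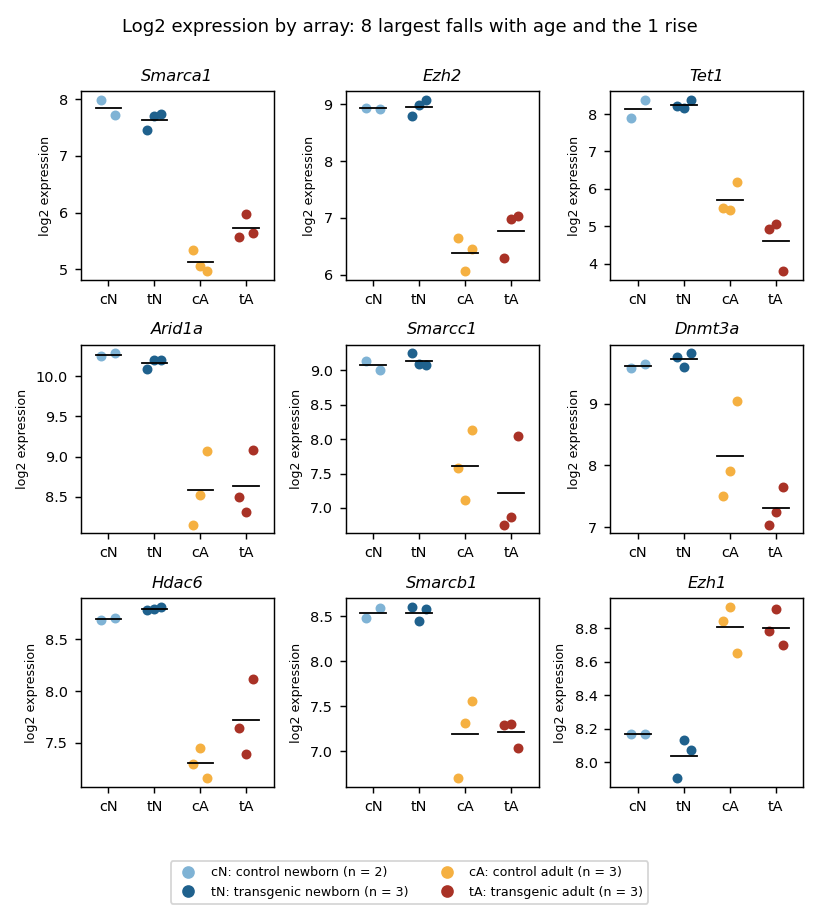
Log2 expression on each of the 11 arrays (y axis; each panel has its own range) for the 8 members with the largest called falls with age in control hearts and for Ezh1, the called rise, with cN control newborn, tN transgenic newborn, cA control adult and tA transgenic adult. Horizontal lines are group means. Adult points lie below newborn points in 8 panels and above them for Ezh1, and adult points spread more widely.

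Transgenic hearts were compared in the same way, with their own adult and newborn arrays. In them 27 members were lower in adults, 1 was higher and 13 did not pass. This was 68.3% of the members, where 39.4% of all genes were called, and by direction 65.9% of members were lower against 19.7% of all genes. The median was -0.75, against 0.09 over all genes. In 29 members every transgenic adult array read below every transgenic newborn array, where 24.7% of all genes did so, and in 3 every adult array read above, where 30.0% did. Tet1 read 4.93, 5.06 and 3.79 in transgenic adults and 8.21, 8.15 and 8.38 in transgenic newborns. No array of one age came within 3 log2 units of the other, and the fall was 3.65 (SE 0.31, adjusted p = 1.1e-05), which is 12.6-fold.

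Dnmt3a read 7.04, 7.25 and 7.64 in transgenic adults and 9.75, 9.59 and 9.81 in transgenic newborns, and fell by 2.40 (SE 0.31). Ezh2 read 6.30, 6.97 and 7.04 against 8.79, 8.99 and 9.08, and fell by 2.18 (SE 0.20). The adult arrays of both genes were lower without overlap. Smarca1 read 5.58, 5.97 and 5.63 against 7.46, 7.70 and 7.74, and fell by 1.90 (SE 0.15). Smarcc1 read 6.76, 6.87 and 8.04 in transgenic adults and 9.24, 9.10 and 9.08 in transgenic newborns, and fell by 1.92 (SE 0.32). Adult replicate 3 was again the highest adult array of this scaffold subunit gene.

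Arid1a read 8.50, 8.31 and 9.08 in transgenic adults against 10.08, 10.20 and 10.21 in transgenic newborns and fell by 1.53 (SE 0.23). Hdac6 read 7.65, 7.40 and 8.11 against 8.78, 8.79 and 8.81, and fell by 1.07 (SE 0.16). In both genes the adult array nearest the newborn values was replicate 3. Smarcb1 read 7.29, 7.31 and 7.04 against 8.60, 8.44 and 8.58, and fell by 1.33 (SE 0.19). Ezh1 read 8.78, 8.92 and 8.70 against 7.90, 8.13 and 8.07, and rose by 0.76 (SE 0.11, adjusted p = 4.95e-04). Ezh1 was the member that rose in transgenic hearts as well as in controls.

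The 22 members called in control hearts were all called in transgenic hearts in the same direction. Another 6 passed only in transgenic hearts: Smarcd1, Chd7, Hdac3, Hdac8, Tet2 and Ctcf. The difference between the age changes of control and transgenic hearts passed for 0 of the 41 members, so these 6 are not shown to differ between genotypes. The 13 members that passed in neither were Smarca2, Smarcd2, Arid1b, Smarca5, Chd1, Ino80, Hdac4, Hdac9, Sirt1, Eed, Tet3, Cbx1 and Cbx3.

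Related members moved unequally on the same arrays. The log2 value of Ezh1 minus that of Ezh2 was -0.78 and -0.76 on the control newborn arrays and 2.19 to 2.87 on the control adult arrays. It was -1.01 to -0.86 in transgenic newborns and 1.66 to 2.48 in transgenic adults, so all adult arrays lay above all newborn arrays. The same held for Smarca2 minus Smarca4 (-0.99 to -0.76 in newborns of both groups and -0.43 to 0.29 in adults), for Smarcc2 minus Smarcc1, for Arid1b minus Arid1a and for Tet2 minus Tet1. Smarca1 minus Smarca5 ran the other way, at -1.74 to -1.02 in newborns and -4.41 to -3.07 in adults, as did Hdac5 minus Hdac4 and Cbx5 minus Cbx3. Dnmt3a minus Dnmt1, Hdac1 minus Hdac2 and Smarcd3 minus Smarcd1 overlapped between the ages. Such differences between probe sets show unequal change, and they give no ratio of the transcripts.

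**Figure D3:**
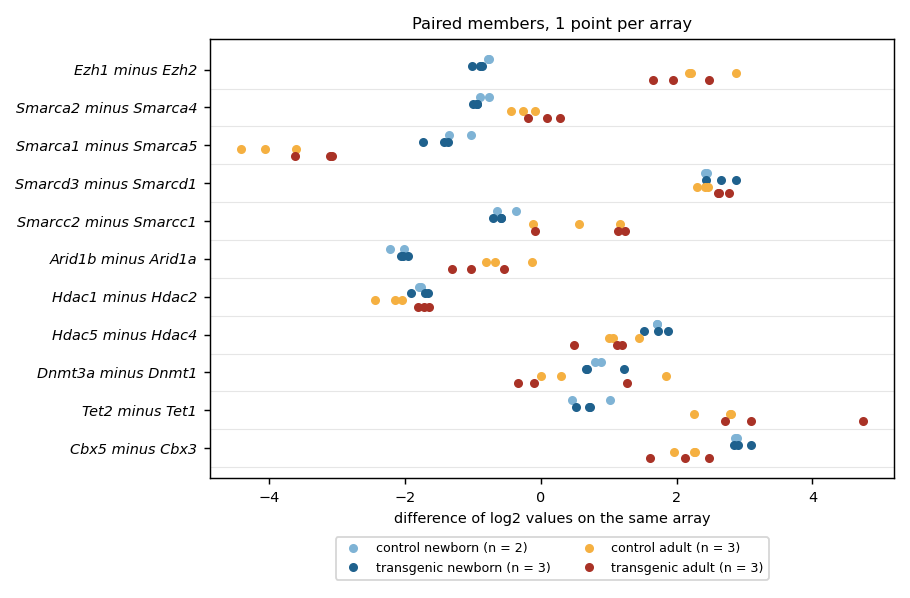
Difference of log2 values between related members on the same array (x axis), 1 point per array in 4 groups. For Ezh1 minus Ezh2 the newborn points lie at -1.01 to -0.76 and the adult points at 1.66 to 2.87, and for Smarca1 minus Smarca5 the adult points lie left of the newborn points.

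Cycling cells and other cell types differed between the ages too. All 7 measured markers of cycling cells were lower in control adults, with a median of -4.69, and all 7 were lower in transgenic adults, with a median of -4.51. Their summed level was 7.42 to 7.94 in control adults and 12.15 to 12.27 in control newborns (log2). In the transgenic groups it was 7.15 to 8.47 and 12.26 to 12.32. All 7 macrophage markers were higher in adults of both genotypes, with a summed level of 11.52 to 12.04 in control adults and 9.93 to 10.21 in control newborns. Of the 8 cardiomyocyte markers 2 were higher and 0 lower in control adults. Of 4 atrial markers Nppa was lower in control adults, and Myl4, Myl7 and Sln were lower in transgenic adults. The summed atrial level was 12.65 to 14.20 in control adults and 15.09 to 15.10 in control newborns. In the transgenic groups it was 14.09 to 14.51 and 15.04 to 15.29. Of 6 fibroblast markers 3 were lower and 1 higher in control adults, and of 5 mural cell markers also 3 and 1. The part of these cell types, and of tissue differences between samples, in the age changes of the chromatin genes was not tested.

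Other probe sets of the called genes gave a partial check. In control hearts 15 of the 22 called members had 37 further probe sets, of which 26 changed in the same direction, 8 of them past the threshold over all probe sets. The dimmest of the 3 probe sets of Hdac2 changed in the opposite direction and passed (0.51, SE 0.15). The rise of Ezh1 rested on 1 of its 4 probe sets, since the second brightest gave 0.45 (SE 0.52, adjusted p = 0.538). The second probe set of Hdac7 gave -0.02 (SE 0.14) and did not pass. In transgenic hearts 41 further probe sets of 19 members gave 30 in the same direction and 14 past the threshold.

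The control comparison has 2 newborn arrays, and 14 members were called when either was left out. That is 34.1% of the members, where 15.5% (without replicate 1) and 20.1% (without replicate 2) of all genes were called. Smarcc2, Smarcd3, Hdac2, Hdac5, Suz12, Dnmt3a and Cbx5 were not called without either array, nor were Smarcc1 without replicate 1 (adjusted p = 0.0820) and Chd4 without replicate 2. Dnmt3a then had adjusted p = 0.0596 and 0.0588. Without control adult replicate 1, Smarcd3, Hdac2, Hdac5, Suz12 and Cbx5 were not called, without replicate 2 Smarcd3 and Suz12, and without replicate 3 Smarcc2, Hdac2 and Hdac5. Smarcd3 and Suz12 were also not called without any 1 of the 3 transgenic newborn arrays or transgenic adult replicate 2, and Smarcd3 without transgenic adult replicate 1. In transgenic hearts Chd7 was the called member that depended on single arrays, being called without transgenic adult replicate 3 and without each of the control adult arrays alone. In both genotypes Arid1a, Smarca1, Hdac1, Hdac6, Ezh2, Dnmt1 and Tet1 were called under all 22 alternatives. Smarca1, Hdac1, Hdac6 and Ezh2 have a single probe set, so the alternatives that change the probe set reused it and tested no other. Equal array medians shift all genes upward by 0.17 in control hearts, after which 16 members were lower and 3 higher, so 15.8% of called members were higher in place of 4.55%. The same setting raised the share of higher calls over all genes from 45.3% to 69.9%. It called 46.3% of the members and 46.2% of all genes, of which 2530 were lower and 5883 higher.

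Other chromatin genes, from a list of 170 measured genes of the same families, were also mostly lower in adults. In control hearts 68 were lower and 13 higher (47.6% called), and in transgenic hearts 91 were lower and 12 higher (60.6%). Of all genes 33.0% and 39.4% were called. The median was -0.38 in controls and -0.54 in transgenic hearts. Cdca5 and Esco2, which establish cohesion between sister chromatids, had differences of -4.13 (SE 0.20) and -2.92 (SE 0.20) in controls and of -4.31 and -3.06 in transgenic hearts, all past the threshold. The Polycomb subunit gene Phc1 fell by 1.44 (SE 0.14) in controls and 1.32 in transgenic hearts, and the histone H4 methyltransferase gene Kmt5c by 1.60 (SE 0.16) and 2.37. The Polycomb reader gene Cbx7 rose by 1.27 (SE 0.14) in controls and 1.12 in transgenic hearts. In controls the cohesin acetyltransferase gene Esco1 rose by 0.70, the methyltransferase gene Setd3 by 0.45 and the histone H4 methyltransferase gene Kmt5a by 1.18 (SE 0.32), and in transgenic hearts Pcgf5, Sirt2 and Phf1 rose by 0.75, 0.57 and 0.56.

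Few of these genes passed the test between transgenic and control adult hearts. Of the 41 members Smarca1 was higher, Hdac9 was lower and 39 did not pass, which is 4.88% where 7.09% of all genes were called (4.16% higher and 2.93% lower). The share called was thus no larger than among all genes. The median was -0.16 over the members and 0.00 over all genes, and 9 members had an unadjusted p under 0.05. In 2 members, Smarca1 and Smarca2, every transgenic array read above every control array, where 10.0% of all genes did, and in 4, Smarcd1, Hdac5, Hdac9 and Tet1, every transgenic array read below, where 7.94% of all genes did.

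Smarca1 read 5.58, 5.97 and 5.63 in transgenic adults against 5.34, 5.06 and 4.96 in control adults. All transgenic values were higher, by 0.61 on average (SE 0.15, limma adjusted p = 0.0346), and both groups stayed below the newborn values of 7.46 to 7.99. The difference was 0.67 on replicate 3 of each group and 0.58 over the other 4 adult arrays. The gene was called in 14 of 23 alternatives, with adjusted p of 0.0145 to 0.139. It was not called without transgenic adult replicate 2, control adult replicate 2 or 3, or transgenic newborn replicate 2 or 3 (adjusted p = 0.0535 to 0.112), nor in the fit of the 6 adult arrays alone.

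Hdac9, whose product restrains growth genes of heart muscle, read 6.54, 7.39 and 5.67 in transgenic adults against 7.65, 7.67 and 8.23 in control adults. All transgenic values were lower, with the lowest on replicate 3, and the fall was 1.32 (SE 0.34, adjusted p = 0.0436). The difference was -2.57 between the replicate 3 arrays and -0.69 over the other 4 arrays (adjusted p = 0.0907). A second, dimmer probe set of Hdac9 differed by 0.07 (SE 0.13). The gene was called in 8 of 23 alternatives, and among those that leave out 1 array it was called without transgenic adult replicate 2 (-1.75) and without transgenic adult replicate 3 (-0.89) alone.

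Tet1 read 4.93, 5.06 and 3.79 in transgenic adults against 5.48, 5.43 and 6.19 in control adults. The groups did not overlap, but the difference of -1.11 (SE 0.31) had an adjusted p of 0.0606. It was -2.40 between the replicate 3 arrays and -0.46 over the other 4. The class IIa deacetylase gene Hdac5 read 7.54, 7.68 and 7.38 against 7.79, 8.23 and 7.98, a difference of -0.46 (SE 0.14, adjusted p = 0.0680). Its groups did not overlap, and the difference was -0.60 on replicate 3 and -0.40 over the other 4 arrays.

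The BAF ATPase gene Smarca2 read 8.47, 8.55 and 8.43 in transgenic adults against 7.90, 8.23 and 8.21 in controls, a difference of 0.37 (SE 0.11, adjusted p = 0.0711). All transgenic values were higher, but its second probe set differed by -0.29 (SE 0.59). Hdac6 read 7.65, 7.40 and 8.11 against 7.30, 7.45 and 7.16, a difference of 0.42 (SE 0.16, adjusted p = 0.171), and its groups overlapped. Replicate 3 gave 0.96 for Hdac6 and the other 4 arrays 0.15. By complex, the medians of the members ran from -0.40 for the DNA methylation genes and -0.36 for CTCF and Rad21 to 0.02 for the SWI/SNF genes. The 95% intervals of the 41 members had a median halfwidth of 0.36 log2 units and a largest of 0.79. They are not adjusted for the number of genes. Differences larger than a gene's own halfwidth could therefore also miss the adjusted threshold, as for Tet1, Hdac5 and Smarca2.

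**Figure D4:**
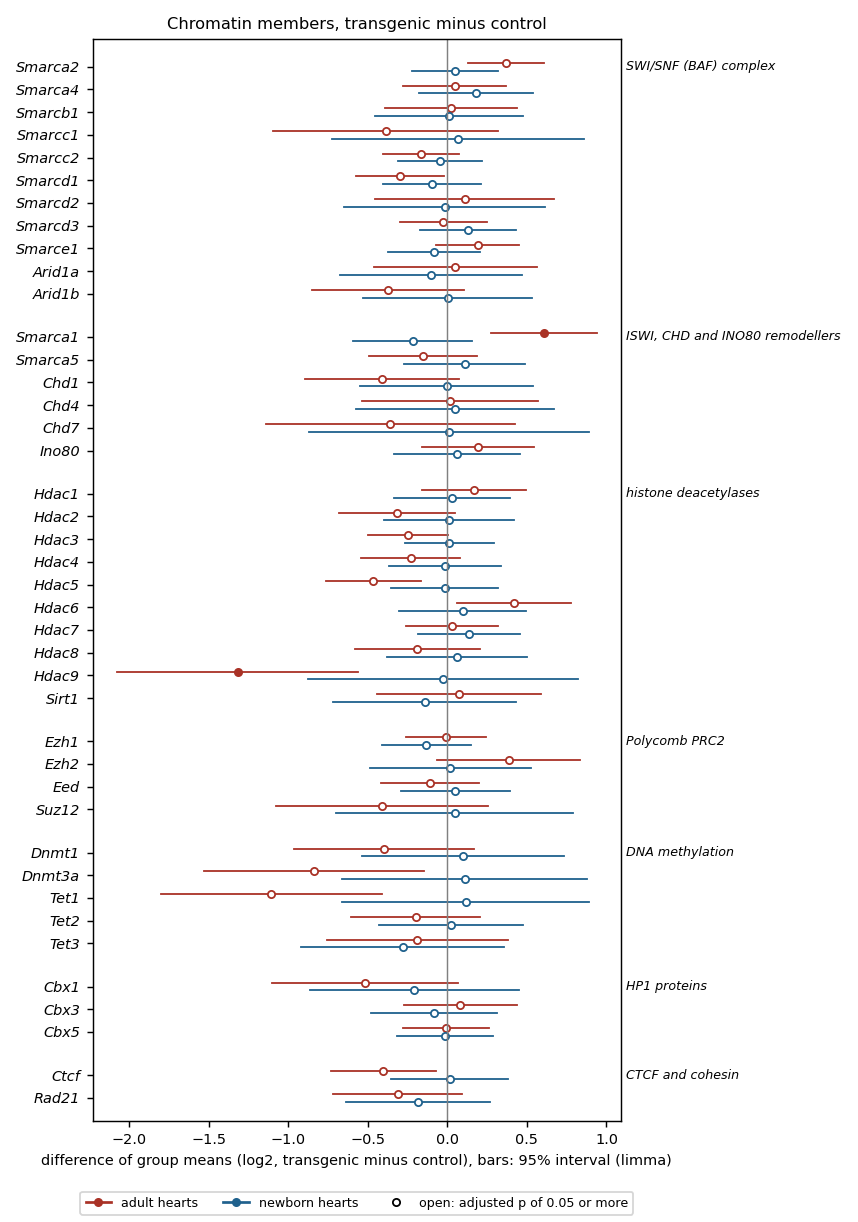
Difference between transgenic and control hearts for each of the 41 genes, grouped by complex, on the log2 scale (x axis; red, adult hearts; blue, newborn hearts). Points are differences of group means and bars are limma's 95% intervals; filled points passed an adjusted p of 0.05. The filled points are Smarca1 at 0.61 and Hdac9 at -1.32, both in adults.

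**Figure D5:**
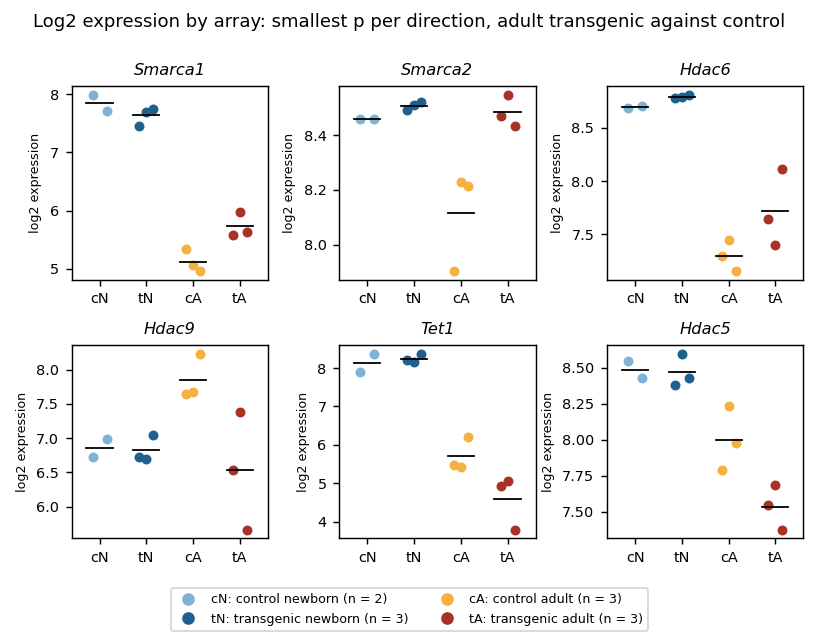
Log2 expression on each of the 11 arrays (y axis; each panel has its own range) for the 3 members with the smallest p in each direction of the adult transgenic comparison, with cN control newborn, tN transgenic newborn, cA control adult and tA transgenic adult. Horizontal lines are group means. Transgenic adult points lie above control adult points for Smarca1 and Smarca2 and below them for Hdac9, Tet1 and Hdac5, and overlap for Hdac6.

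Adult replicate 3 of both groups stood apart from the other 4 adult arrays for many members. It read above all 4 in 12 members, where 6.69% of all genes did so: Smarca4, Smarcc1, Arid1a, Arid1b, Smarca5, Chd4, Chd7, Hdac4, Suz12, Tet2, Tet3 and Cbx3. It read below all 4 in 7 members, where 20.6% of all genes did so: Smarcd2, Ino80, Hdac1, Hdac8, Ezh1, Eed and Dnmt1. The nuclear RNA Malat1 read 13.04 and 12.75 on these arrays and 8.15 to 9.33 on the other 4. Newborn arrays read 11.63 to 11.94 for it, so this RNA differed between the ages as well. With this 18S split as a factor 6 members were called, 2 higher and 4 lower (Smarca1, Smarca2, Hdac5, Hdac9, Dnmt3a and Tet1). This was 14.6% of the members, about the same share as among all genes, of which 2625 of 18194 were called. Without the replicate 3 arrays 4 members were called, namely Smarca2, Smarcc1, Chd7 and Dnmt3a. This was 9.76% of the members, a smaller share than among all genes (2183 of 18194).

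Markers of other cells moved in the same adult comparison. Of 6 fibroblast markers Tcf21 was higher (0.82), of 7 macrophage markers C1qa and C1qc were higher (0.70 and 0.69), and of 5 endothelial markers Kdr was lower (-0.78). Of 5 mural cell markers Acta2 was higher (1.56), and 0 of 8 cardiomyocyte markers passed. Of 4 atrial markers Nppa was higher (2.35), while Sln, Myl7 and Myl4 differed by -3.97 (adjusted p = 0.0575), -3.23 (adjusted p = 0.0605) and -1.88 (adjusted p = 0.158) with overlapping groups, and the median of the list was -2.56. The summed fibroblast level was 14.07 to 14.12 in transgenic and 13.30 to 13.84 in control adults, and the macrophage level 11.83 to 12.55 and 11.52 to 12.04 (log2). Of 3 measured adipocyte markers 0 passed, with a median of -1.33. Control adult replicate 3 read 7.89 for Adipoq and 7.62 for Ucp1, against 3.23 to 4.64 and 3.71 to 3.91 on the other adult arrays. Its Fabp4 value was 12.96, against 13.01 to 13.31. For atrial Myl7 it read 12.59, against 6.58 to 10.60. The part of these cell types, and of tissue differences between samples, in the differences of the chromatin genes was not tested. Of the 170 other chromatin genes 1 was higher and 2 were lower (1.76% called): the Polycomb gene Pcgf5 rose by 0.64 (SE 0.12), the deacetylase gene Hdac11 fell by 1.02 (SE 0.26) and the BAF subunit gene Bcl7a fell by 0.56 (SE 0.15). Pcgf5 read 9.97, 9.86 and 10.08 in transgenic adults against 9.15, 9.28 and 9.54 in control adults. Hdac11 read 6.30, 6.12 and 5.18 against 6.68, 7.31 and 6.68, and neither gene overlapped between the groups.

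In newborn hearts none of the chromatin genes passed the test between transgenic and control. Limma called 0 of the 41 members, 0 of the 170 other chromatin genes and 0 of all 18194 genes (percent called 0). At an unadjusted p under 0.05 there were 0 members and 198 of all genes, and the smallest adjusted p was 0.999985. The member differences ran from -0.28 to 0.18 with a median of 0.01. Every transgenic array read above both control arrays in 6 members, where 11.1% of all genes did so, and below both in 6, where 9.83% did.

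Among the members with the smallest p in newborns, the ATPase gene Smarca4 read 9.43, 9.45 and 9.51 in transgenic hearts against 9.35 and 9.22 in controls, a difference of 0.18 (95% interval -0.18 to 0.54). Smarcd3 read 9.57, 9.51 and 9.62 against 9.42 and 9.46, and Hdac7 read 8.73, 8.83 and 8.72 against 8.63 and 8.62, with differences of 0.13 and 0.14. In these 3 genes the transgenic arrays lay above the controls by less than the interval could separate from 0. Smarca1 read 7.46, 7.70 and 7.74 against 7.99 and 7.71, a difference of -0.22 (95% interval -0.59 to 0.15), and its groups overlapped. Ezh1 and Tet3 differed by -0.13 (95% interval -0.41 to 0.15) and -0.28 (95% interval -0.92 to 0.36). Tet3 read 4.67, 4.61 and 4.74 in transgenic against 4.91 and 5.00 in control newborns, without overlap, and Ezh1 read 7.90, 8.13 and 8.07 against 8.17 and 8.17.

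The transgenic effect was then compared between the ages within the same fit. The difference between the adult and the newborn effect passed for 0 of the 41 members and for 125 of all genes (0.687%; 0.445% higher and 0.242% lower), and 3 members had an unadjusted p under 0.05. These were Smarca1 with 0.83 (SE 0.23, adjusted p = 0.158), Tet1 with -1.22 (SE 0.47, adjusted p = 0.380) and Hdac9 with -1.29 (SE 0.52, adjusted p = 0.413). Smarca1 was called with array weights (adjusted p = 0.0313), which was the only one of 22 alternatives to call a member. The intervals of this difference had a median halfwidth of 0.55 log2 units over the members.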

How the data were processed

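Left ventricle RNA was hybridised to Affymetrix mouse arrays, 1 per sample. The authors deposited log2 expression values, with array medians of 5.12 to 5.18. The submitters' processing notes name RMA, affy and limma without versions or roles, and a genome build is not given in the sources used here. Nearly equal array medians mean that a shift shared by most transcripts would not be seen. Of 45101 probe sets, 34958 had 1 symbol in the platform annotation. The 41 members matched RefSeq symbols by gene ID.

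Limma 3.58.1 (R 4.3.3) fitted a group-means model to the 11 arrays, with 7 residual and 3.85 prior degrees of freedom. The fitting script was checked on simulated data with known changes, whose means and spreads were taken from these arrays. Tests were 2-sided and adjusted over 18194 genes. The median residual SD was 0.18 over all arrays, 0.21 in adults alone and 0.11 in newborns alone, so the shared spread is narrower than that of the adult arrays. Arrays hold no read depth, and their number limits the precision.

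The members and gene lists were chosen with earlier results of these data known. Named members were those called in the adult transgenic comparison or the 3 with the smallest p per direction, and up to 8 per direction with the largest change among those called between control ages. Of the other chromatin genes, up to 4 per direction were named by p, and genes named beyond these rules were chosen after their values were seen. Of 180 such genes listed, 10 are not analysed here. The E2F motif search was also added after the values were seen. Alternatives changed the normalisation, the probe set per gene, the variance model, the arrays in the fit, the filter and the fold threshold, and left out each array.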

Additional observations from a re-analysis of the deposited data

How the results depend on the processing

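In transgenic against control adults 2 members were called. The count was 6 with the 18S split as a factor, 4 without the split-off arrays, 4 with a common array median, 4 with cyclic loess, 1 with array weights, 1 with the probe sets of a gene averaged, 0 with only the 6 adult arrays in the fit and 0 with the second probe set. Of all 18194 genes 1290 were called, 2625 with the 18S split as a factor and 2183 without the split-off arrays. A gene with a single probe set kept it under the second probe set alternative. Smarca1 is such a gene, with the same difference of 0.61. Its limma adjusted p there was 0.0506, with the fit and the adjustment over all probe sets. Leaving out each array gave 0 to 4 members, with 0 without control adult replicate 2 or 3 or transgenic newborn replicate 2 or 3. That is up to 9.76% of the members, where 4.1% to 12.5% of all genes were called. With the replicate block the count was 1, which was Dnmt3a. Deviations from the group means correlated at 0.31, -0.06 and 0.45 between same-numbered adult arrays, and at -0.42 to 0.31 between differently numbered ones. Same-numbered newborn arrays gave 0.18 and -0.15. The 2 control newborn arrays deviate from their mean by mirrored amounts, so each sign there is fixed by the other array. The labels do not say whether the numbers pair the samples, and these values do not settle it. The replicate block gave 0 members in newborns and 0 for the difference between ages. It was not run between ages, since the numbers lie within an age.

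Between ages more members were lower than higher under every alternative. In control hearts 22 members were called, 15 to 29 under the alternatives and 14 to 28 when each array was left out. In transgenic hearts 28 were called, 20 to 31 and 27 to 30. The shares in control hearts were 36.6% to 70.7% and 34.1% to 68.3% of the members. Over all genes they were 24.1% to 46.7% and 15.5% to 40.8%. In transgenic hearts they were 48.8% to 75.6% and 65.9% to 73.2% of the members, and 24.0% to 51.2% and 27.3% to 43.9% of all genes. For the difference between ages array weights gave 1 member and the other alternatives 0, and leaving out each array gave 0. Array weights thus called 2.44% of the members, where 4.62% of all genes were called. In newborns every alternative gave 0. Between transgenic and control adults the second probe set turned the sign of 12 of the 28 members that have one, among them Hdac9 (0.068), Smarca2 (-0.29), Chd1 (0.96), Chd7 (0.37), Smarcc1 (0.25), Smarca4 (-0.64) and Chd4 (-0.70), with Hdac9 the only called one. The cause of these changes was not tested. Arrays give no read depth. Hdac8 was dim on every array, and the filter on low values, which kept 11881 genes, removed it.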

Other observations

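The 170 other chromatin genes can be described by family. Beside the counts below, 18.1% of all genes were lower and 14.9% higher in control adults than in control newborns. In control adults, of 32 genes listed under histone methyltransferases 15 were lower than in newborns and 2 were higher, Kmt5a and Setd3. A listed gene such as Setd3 need not act on histones. Of 17 histone demethylase genes 9 were lower and 2 higher, Kdm1b and Kdm4d (limma adjusted p under 0.05 over all genes). Of 12 acetyltransferase and bromodomain genes 6 were lower and 0 higher, among them the coactivator gene Crebbp and the acetyltransferase genes Kat2a and Kat5. The same 6 genes of this family were lower in transgenic adults. Of 24 Polycomb partners 8 were lower and 2 higher, and of 32 ISWI, CHD, NuRD and INO80 genes 13 were lower and 1, Cecr2, was higher. Among 17 further BAF and PBAF subunit genes 7 were lower, including the PBAF genes Pbrm1 and Arid2, and 1 was higher, Ss18l1, a BAF subunit gene known from neurons.

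The 14 further deacetylase and corepressor genes held 4 that were lower in control adults (Sin3a, Sin3b, Rcor1 and Tbl1x) and 3 that were higher (Sirt2, Sirt5 and Tbl1xr1), with a median of -0.08. Among 9 DNA methylation partners 2 were lower, one of them Uhrf1, which brings DNMT1 to replicated DNA, and 1 was higher, with a median of -0.15. Among 13 cohesin and loop genes 4 were lower and 1 was higher. Of the methylation partners 6 did not pass and of the cohesin and loop genes 8. Their shares called thus lie near the 33.0% of all genes. The cohesin ring genes Smc1a and Smc3 passed as lower in transgenic hearts but not in control hearts. The difference between the age changes of control and transgenic hearts passed for 0 of the 170 genes.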
